A study of Homo sapiens with 3 samples.

Results

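The 43 genes described here encode proteins that copy DNA or prepare cells for copying it: the MCM helicase and the factors that load and fire it, the DNA polymerases, the sliding clamp and its loader, single-strand binding proteins, enzymes of nucleotide supply, and a few chromatin, checkpoint and repair proteins that travel with the fork. They were chosen by symbol from a list of replication and S phase genes, and all 43 were found among the 31113 symbols of the joined gene lists. They were measured in single cells of H9, an established human embryonic stem cell line, by inDrop with the TruDrop protocol. This droplet method tags the RNAs of a cell with a shared barcode and every RNA with its own molecular identifier (UMI). There are 3 libraries, 1 for each labelled time of differentiation towards neural progenitors: day 0 (cells labelled as embryonic stem cells), day 2 and day 6 (both labelled as differentiated stem cells or neural progenitors). All were grown with mTeSR, a stem cell medium, and the STEMdiff SMADi Neural Induction Kit, which blocks SMAD signalling; the labels give no genotype difference between them. The titles carry the letter A at day 0 and day 6 and B at day 2; what the letters mean is not given, and the letter and the day 2 label cannot be told apart.

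The libraries are called by their labels, although their markers go against these. POU5F1, the pluripotency factor OCT4, stood at 2.22 CPM in the day 0 library, 1229 CPM in the day 2 library and 268 CPM in the day 6 library. PAX6, a neural progenitor factor, stood at 176 CPM in the day 0 library, 6.64 CPM in the day 2 library and 27.9 CPM in the day 6 library. A difference between libraries is therefore not read as a change over time. The kept cells numbered 2290, 2419 and 4180 at labelled day 0, day 2 and day 6, with 28341741, 20626135 and 41268018 UMIs. Between 38 and 82 kept barcodes were shared by a pair of libraries. Each label has 1 library, so no test between labels was possible and nothing was checked against replicates. Levels are UMIs per 1000000 summed UMIs of a library (CPM). All intervals are exact 95% intervals for counting error alone; the spread between cultures is not in them.

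Before a cell can copy its DNA, the origin recognition complex, CDC6 and CDT1 load MCM2 to MCM7 onto DNA as an inactive ring in G1. At the start of S phase CDC45 and the GINS complex join the ring and turn it into the active helicase. Polymerase alpha with primase then lays down primers, polymerases epsilon and delta extend them on the PCNA clamp, and FEN1 and LIG1 join the fragments of the lagging strand. Many of these genes are transcribed under E2F factors towards S phase. Pluripotent stem cells are known for a short G1 and for a large part of their cells in S phase.

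The genes differed less as a sum than one by one. Their UMIs summed to 3405 CPM (3384 to 3427) in the day 0 library, 3345 CPM (3320.4 to 3370.3) in the day 2 library and 3897 CPM (3878 to 3916) in the day 6 library. The sum was thus highest at labelled day 6, and the day 0 and day 2 libraries lay close together. Over the same libraries 54 genes of G2 and mitosis summed to 7365 CPM at labelled day 0, 6106 CPM at labelled day 2 and 5029.5 CPM at labelled day 6, so the mitotic sum was lowest where the replication sum was highest. The libraries also differed in the mitochondrial share of UMIs, with medians of 12.1%, 5.26% and 8.27% per cell at labelled day 0, day 2 and day 6. In cells with at most 10% the replication sum was 3910.2 CPM at labelled day 0, 3888 CPM at labelled day 2 and 4369 CPM at labelled day 6. The day 6 library was the highest in that setting too.

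**Figure D1:**
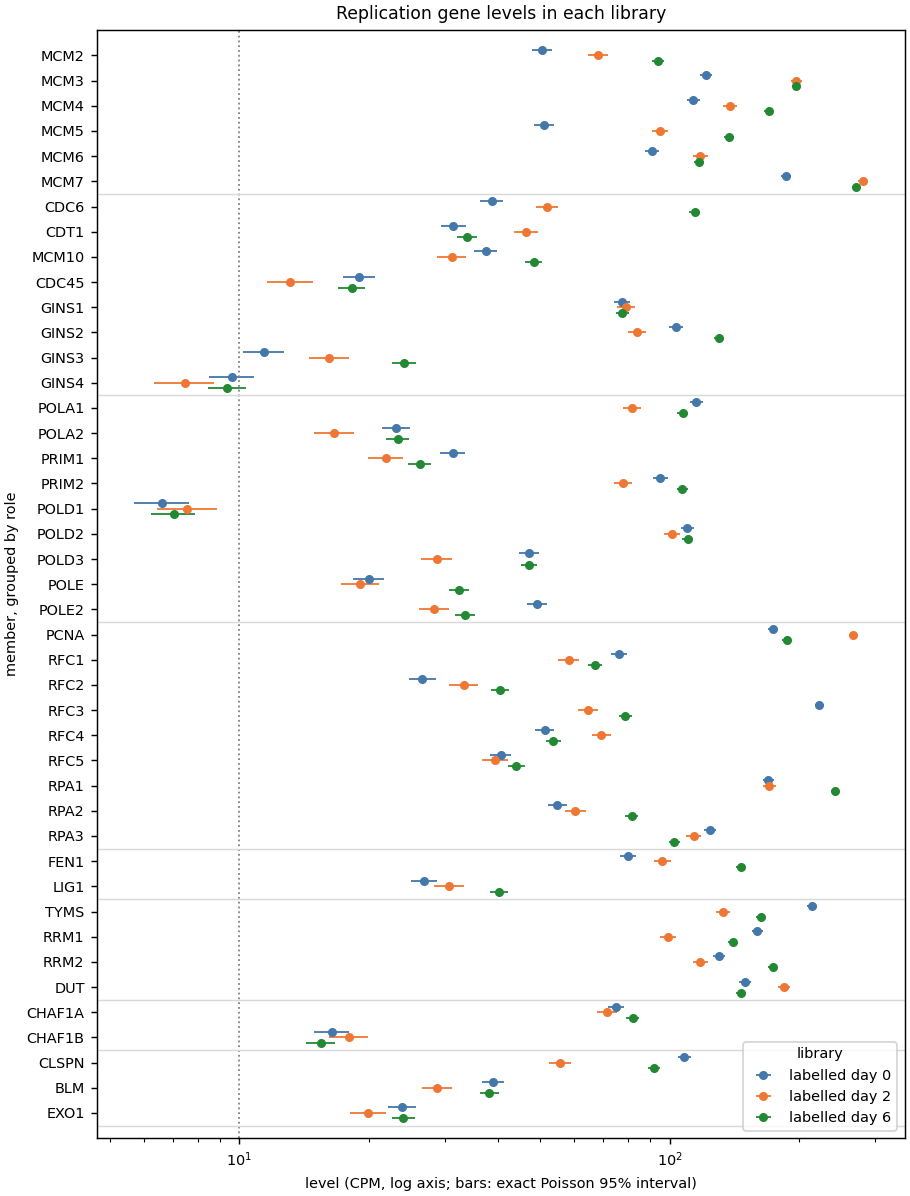
Level of each of the 43 genes (x axis, CPM on a log scale, with exact Poisson 95% intervals) in the day 0, day 2 and day 6 libraries, with genes down the page by role and a dotted line at 10 CPM. The rows of MCM2 to MCM7 lie further left at labelled day 0, RFC3 lies far right at labelled day 0 (223 CPM), and GINS4 and POLD1 stay left of the line.

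Of the 43 genes, 41 reached 10 CPM in at least 1 library; GINS4, a GINS subunit, and POLD1, the catalytic subunit of polymerase delta, did not. GINS4 stood at 9.60 CPM in the day 0 library, 7.47 CPM in the day 2 library and 9.35 CPM in the day 6 library. POLD1 stood at 6.60 CPM in the day 0 library, 7.56 CPM in the day 2 library and 7.03 CPM in the day 6 library. Among the 41, the highest level was in the day 6 library for 20 genes, in the day 0 library for 12 and in the day 2 library for 9. The lowest was in the day 2 library for 21, in the day 0 library for 17 and in the day 6 library for 3. The same was not counted over all genes. Their median log2 ratio was itself positive for labelled day 6 over day 2 (0.12) and over day 0 (0.12). The counts are therefore not read as a trait of the list.

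Between labelled day 2 and day 0, 0 of the 41 were at least 2-fold higher, against 10.1% of all 10574 genes with at least 10 CPM, and 1 (RFC3) was at most 0.5 times, against 10% of all genes. Their median log2 ratio was -0.06, beside 0.01 for all genes. Between labelled day 6 and day 2, 1 (CDC6) was at least 2-fold higher, against 8.39% of all genes, and 0 were at most 0.5 times, against 6.25%. The median was 0.30, beside 0.12, and 31 of the 41 had a ratio above 1. The share above 1 was not counted over all genes. The quartiles of the log2 ratio were 0.12 and 0.50 for the members, beside -0.28 and 0.50 for all genes. Between labelled day 6 and day 0, 3 (CDC6, MCM5 and GINS3) were at least 2-fold higher, against 10.8%, and 1 (RFC3) was at most 0.5 times, against 6.06%. The median was 0.11, beside 0.12. Shares past 2-fold were thus below those of all genes in each comparison. The comparisons share libraries, so their counts are not independent.

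To find genes that leave the common course of the list, each ratio was set against the list's median ratio. A gene was taken to depart when it lay at least 1.5-fold from that median and its interval did not hold the median; a common scaling of a library cancels out of this measure. Between day 2 and day 0, 11 of 41 departed (26.8%), against 40.7% of all genes measured from the same median. Between day 6 and day 2, 5 departed (12.2%), against 35.5%. Between day 6 and day 0, 9 departed (21.95%), against 37.2%. The members are centred on their own median and all genes on that of the members, so the shares are not measured alike. In all, 18 genes departed at least once and 23 in none, among these all of polymerase alpha and primase, all of RPA, RFC1, RFC2, RFC5, GINS1 and GINS2. Some of the 23 departed in alternative settings. For day 2 over day 0 these were POLA1, BLM and CDC45, with a mitochondrial limit of 10% and with the average of single-cell CPM. PRIM1 did so with mitochondrial shares between 5% and 25%. For day 6 over day 2 CHAF1B departed with the 10% limit.

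**Figure D2:**
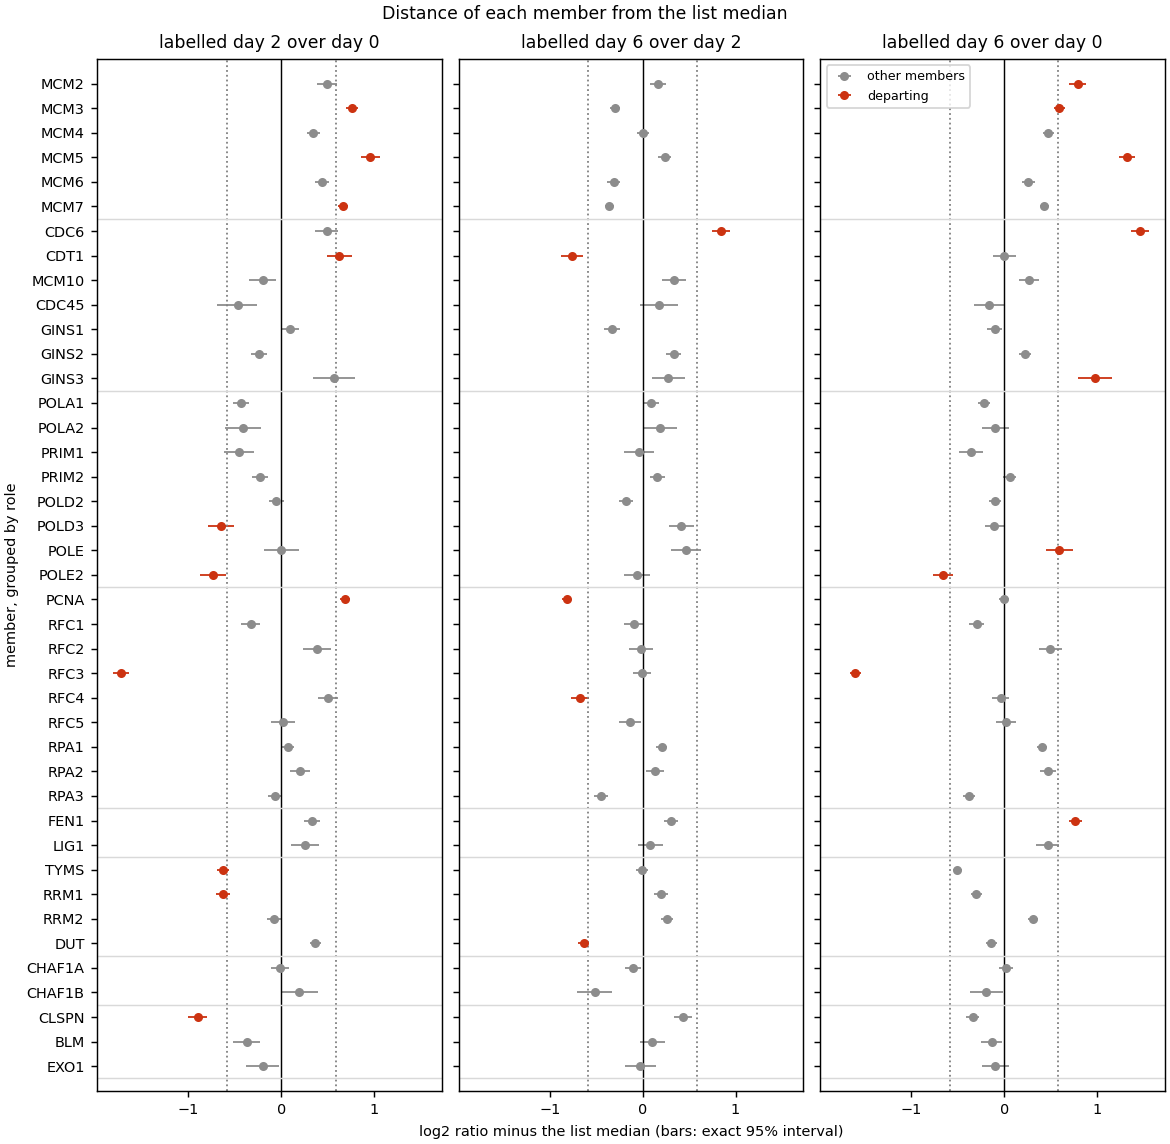
Log2 ratio of each of the 41 measured genes minus the list median (x axis) in 1 panel per comparison (day 2 over day 0, then day 6 over day 2, then day 6 over day 0), with exact 95% intervals; dotted lines mark 1.5-fold and red points depart. MCM2 to MCM7 and PCNA lie right of 0 and TYMS, RRM1 and CLSPN left of it for day 2 over day 0, RFC3 lies far left in the first and last panels, and CDC6 lies right in the middle and last.

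Promoter sequence was available for 37 of the 43 genes in the RefSeq table (GRCh38.p14; the files' build is hg38). The 250 bases before each start were searched on both strands for the 8 letters TTTCGCGC or TTTGGCGC, forms of the E2F site, and for CCAAT, the site of NF-Y. The E2F letters were found for 6 of 37 genes (16.2%), against 327 of 27305 genes in the table (1.2%). These were MCM6, MCM7, POLA1, POLA2, POLE and DUT. CCAAT was found for 21 of 37 (56.8%), against 37.0% of all genes. The matches are a description of the letters. Of the genes with the E2F letters, MCM6, POLA1 and POLA2 departed in no comparison with the main settings, while MCM7, POLE and DUT departed in 1 each. The promoters of 5 genes are shown from 5′ to 3′ on the gene's strand, without bases that lie in an annotated exon, and with matches in capitals: MCM6 and POLA1 for the E2F letters, PCNA and CLSPN for genes on opposite sides of the list median, and RFC3 for the largest departure.
MCM6 (chr2:135876444-135876693, minus strand): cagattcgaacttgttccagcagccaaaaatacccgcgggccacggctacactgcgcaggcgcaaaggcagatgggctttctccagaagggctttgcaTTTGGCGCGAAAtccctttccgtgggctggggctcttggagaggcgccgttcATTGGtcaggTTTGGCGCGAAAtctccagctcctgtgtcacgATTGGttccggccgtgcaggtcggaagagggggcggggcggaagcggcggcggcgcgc
POLA1 (chrX:24693668-24693917, plus strand): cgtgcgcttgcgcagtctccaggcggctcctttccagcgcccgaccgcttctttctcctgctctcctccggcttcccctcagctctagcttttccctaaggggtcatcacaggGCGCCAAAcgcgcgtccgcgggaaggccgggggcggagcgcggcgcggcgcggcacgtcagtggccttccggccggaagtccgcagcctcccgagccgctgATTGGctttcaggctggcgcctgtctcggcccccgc
PCNA (chr20:5126627-5126785, minus strand): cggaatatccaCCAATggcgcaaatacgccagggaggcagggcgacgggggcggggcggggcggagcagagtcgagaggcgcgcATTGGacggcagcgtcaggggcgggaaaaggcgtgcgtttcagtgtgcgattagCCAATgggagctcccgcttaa
CLSPN (chr1:35769979-35770228, minus strand): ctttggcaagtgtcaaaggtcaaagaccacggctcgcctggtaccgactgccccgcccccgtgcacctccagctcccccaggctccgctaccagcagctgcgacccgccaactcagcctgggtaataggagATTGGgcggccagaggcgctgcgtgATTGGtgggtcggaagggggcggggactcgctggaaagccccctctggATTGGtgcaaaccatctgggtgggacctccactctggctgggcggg
RFC3 (chr13:33817899-33818048, plus strand): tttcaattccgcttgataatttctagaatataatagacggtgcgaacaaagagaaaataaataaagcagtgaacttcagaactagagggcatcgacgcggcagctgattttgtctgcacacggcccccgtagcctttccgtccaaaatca
In MCM6 the E2F letters occur 4 times, as 2 pairs in which both forms overlap on opposite strands, starting 152 and 90 bases before the start. POLA1 holds them once, 137 bases before the start. PCNA, shown at 1 of its 2 listed promoters, and CLSPN hold CCAAT 3 times each, and the RFC3 stretch holds neither motif.

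The 6 genes of the MCM2 to MCM7 helicase lay on 1 side of the day 0 library. All were higher in the day 2 library than in the day 0 library, and all were higher in the day 6 library than in the day 0 library, with intervals that exclude 1. Summed over the 6 genes the level was 614 CPM in the day 0 library, 899 CPM in the day 2 library and 987 CPM in the day 6 library. MCM5 had the widest range as a ratio, at 51.1 CPM (95% interval 48.5 to 53.8) in the day 0 library, 94.98 CPM (95% interval 90.8 to 99.3) in the day 2 library and 138 CPM (95% interval 134 to 141) in the day 6 library. The 3 intervals do not overlap, and the order runs from the day 0 to the day 2 to the day 6 library. Its ratio was 1.86 (1.74 to 1.99) for the day 2 library over the day 0 library and 2.69 (2.54 to 2.86) for the day 6 library over it, 1.94 and 2.504 times the list medians. MCM2, also a histone-binding subunit, had the same order at 50.6 CPM in the day 0 library, 68.1 CPM in the day 2 library and 94.1 CPM in the day 6 library, and its ratio for day 6 over day 0 was 1.86 (1.75 to 1.98). MCM4 had it too, at 114 CPM in the day 0 library, 138 CPM in the day 2 library and 170.2 CPM in the day 6 library.

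The other 3 subunits were no higher at labelled day 6 than at labelled day 2. MCM3 stood at 122 CPM in the day 0 library, 197 CPM in the day 2 library and 197 CPM in the day 6 library, and its ratio for day 6 over day 2 was 0.999 (0.962 to 1.04). MCM6 stood at 91.0 CPM in the day 0 library, 118 CPM in the day 2 library and 117 CPM in the day 6 library, with a ratio of 0.992 (0.945 to 1.04) for day 6 over day 2. MCM7 stood at 186 CPM in the day 0 library, 282 CPM in the day 2 library and 271 CPM in the day 6 library, with a ratio of 0.961 (0.931 to 0.992). The subunits of 1 ring thus spread from 1.29 (MCM6) to 2.69 (MCM5) for day 6 over day 0. Of the departures, those of MCM2 and MCM5 stood in all 13 alternative settings. That of MCM3 for day 6 over day 0, at 1.51 times the median, stood in 6 of 13, and that of MCM7 for day 2 over day 0 in 10 of 13. Both were lost with the average of single-cell CPM and with a minimum of 50 CPM, MCM7 also with a mitochondrial limit of 10%, and MCM3 also with 5 changes to the cells kept.

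Among the loading and firing factors, CDC6 and CDT1, which load the MCM ring together, had different orders. CDC6 stood at 38.6 CPM (95% interval 36.3 to 40.9) in the day 0 library, 51.9 CPM (95% interval 48.8 to 55.1) in the day 2 library and 114 CPM (95% interval 111 to 118) in the day 6 library. It was highest in the day 6 library, with a ratio of 2.20 (2.06 to 2.36) over day 2 and 2.97 (2.78 to 3.17) over day 0, the largest ratio of the 41 genes in each of these comparisons. CDT1 stood at 31.4 CPM in the day 0 library, 46.4 CPM in the day 2 library and 33.8 CPM in the day 6 library. It was highest in the day 2 library, with a ratio of 0.728 (0.670 to 0.792) for day 6 over day 2 and of 1.08 (0.989 to 1.17) for day 6 over day 0, whose interval holds 1. The departure of CDT1 for day 2 over day 0 stood in 10 of 13 alternatives, and was lost in those that cost MCM7 its departure. CDC6 lies on chromosome 17 at 40287633 to 40304657 and CDT1 on chromosome 16 at 88803213 to 88809258 (GRCh38, GENCODE 29).

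The parts that convert the loaded ring into a moving helicase did not follow the MCM genes as a group. CDC45, which binds the ring at firing, stood at 19.0 CPM in the day 0 library, 13.1 CPM in the day 2 library and 18.3 CPM in the day 6 library, lowest at labelled day 2. MCM10, which helps activate the ring, stood at 37.4 CPM in the day 0 library, 31.1 CPM in the day 2 library and 48.3 CPM in the day 6 library. GINS2 stood at 104 CPM in the day 0 library, 84.1 CPM in the day 2 library and 130.5 CPM in the day 6 library. All these were lowest in the day 2 library. GINS1 stood at 77.5 CPM in the day 0 library, 79.3 CPM in the day 2 library and 77.7 CPM in the day 6 library, and the intervals of its 3 ratios hold 1. GINS3 stood at 11.4 CPM in the day 0 library, 16.2 CPM in the day 2 library and 24.2 CPM in the day 6 library, with a ratio of 2.12 (1.87 to 2.41) for day 6 over day 0. The GINS subunits, which form 1 complex, therefore did not share an order of libraries.

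All 8 measured members among the polymerases and primase were lower in the day 2 library than in the day 0 library, and all 8 were higher in the day 6 library than in the day 2 library. Summed, they stood at 492 CPM in the day 0 library, 376 CPM in the day 2 library and 487 CPM in the day 6 library. For day 2 over day 0 the intervals of 7 exclude 1; that of POLE, the catalytic subunit of polymerase epsilon, was 0.957 (0.839 to 1.09). POLA1, which holds the polymerase activity of polymerase alpha, stood at 116 CPM in the day 0 library, 81.7 CPM in the day 2 library and 107 CPM in the day 6 library, and POLA2, its partner, at 23.1 CPM in the day 0 library, 16.6 CPM in the day 2 library and 23.3 CPM in the day 6 library. PRIM1, the primase that starts each fragment, stood at 31.3 CPM in the day 0 library, 21.9 CPM in the day 2 library and 26.2 CPM in the day 6 library, and PRIM2, its large subunit, at 95.3 CPM in the day 0 library, 77.9 CPM in the day 2 library and 107 CPM in the day 6 library. The ratios of these 4 for day 2 over day 0 ran from 0.699 (PRIM1) to 0.817 (PRIM2). PRIM1 overlaps NACA, which stood at 716 CPM in the day 0 library, 855 CPM in the day 2 library and 535 CPM in the day 6 library, and the strand setting of the counting is not given in the sources used here.

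POLD3, an accessory subunit of polymerase delta, stood at 47.2 CPM in the day 0 library, 28.7 CPM in the day 2 library and 47.1 CPM in the day 6 library. Its ratio was 0.609 (0.552 to 0.672) for day 2 over day 0 and 0.999 (0.931 to 1.07) for day 6 over day 0. POLD2, another delta subunit, stood at 109.9 CPM in the day 0 library, 101 CPM in the day 2 library and 110.3 CPM in the day 6 library, with all ratios within 0.923 and 1.09. Polymerase epsilon has 2 subunits in the list, the catalytic POLE and POLE2. POLE stood at 19.97 CPM in the day 0 library, 19.1 CPM in the day 2 library and 32.4 CPM in the day 6 library and POLE2 at 49.3 CPM in the day 0 library, 28.4 CPM in the day 2 library and 33.5 CPM in the day 6 library. For day 6 over day 0 the ratio was 1.62 (1.47 to 1.80) for POLE and 0.680 (0.631 to 0.733) for POLE2. The small subunits POLE3 and POLE4, which are no members, had 1.63 (1.52 to 1.74) and 1.31 (1.23 to 1.40), so POLE2 was the subunit that was lower at labelled day 6 than at labelled day 0. The departure of POLE, at 1.51 times the list median, stood in 10 of 13 alternatives and was lost with no cell filter, with the average of single-cell CPM and with the 50 CPM minimum. That of POLE2 stood in 12 of 13 and was lost with the 50 CPM minimum, which leaves it out.

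PCNA, the ring that holds polymerases on DNA, was highest at labelled day 2. It stood at 174 CPM (95% interval 169 to 179) in the day 0 library, 268 CPM (95% interval 261 to 275) in the day 2 library and 187 CPM (95% interval 183 to 191) in the day 6 library, and the interval of the day 2 library lies above both others. Its ratio was 1.54 (1.48 to 1.60) for day 2 over day 0 and 0.699 (0.675 to 0.723) for day 6 over day 2. Both departures from the list median stood in all 13 alternatives. PCNA lies on chromosome 20 at 5114953 to 5126626 and has named pseudogenes in the annotation, so how its reads were divided is uncertain.

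The loader that opens PCNA is a complex of RFC1 to RFC5, and 1 of its subunits differed more than any other gene of the list. RFC3 stood at 223 CPM (95% interval 217 to 228) in the day 0 library, 64.5 CPM (95% interval 61.1 to 68.1) in the day 2 library and 79.0 CPM (95% interval 76.3 to 81.7) in the day 6 library. It was highest in the day 0 library, with a ratio of 0.289 (0.273 to 0.307) for day 2 over day 0 and 0.354 (0.339 to 0.370) for day 6 over day 0. The other subunits lay between 0.763 (RFC1) and 1.35 (RFC4) for day 2 over day 0, and between 0.878 (RFC1) and 1.52 (RFC2) for day 6 over day 0. RFC3 was seen in 15.6% of cells in the day 0 library, 5.08% in the day 2 library and 7.22% in the day 6 library when each cell was thinned to 1000 UMIs. Its departure stood in all 13 alternatives in both comparisons. RFC3 lies on chromosome 13 at 33818049 to 33966558 and has a named pseudogene. It overlaps AL161891.1, an intronic transcript, and RNU5A-4P, a small nuclear RNA, and their part in its counts was not tested.

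RFC2 stood at 26.6 CPM in the day 0 library, 33.2 CPM in the day 2 library and 40.4 CPM in the day 6 library. RFC4 stood at 51.3 CPM in the day 0 library, 69.4 CPM in the day 2 library and 53.7 CPM in the day 6 library, highest at labelled day 2, as PCNA was. Its departure for day 6 over day 2 stood in 12 of 13 alternatives and was lost with the average of single-cell CPM. RFC4 overlaps EIF4A2, a translation factor gene that stood at 548 CPM in the day 0 library, 583 CPM in the day 2 library and 363 CPM in the day 6 library; the part of EIF4A2 in the RFC4 counts was not tested. RFC1, the large subunit, stood at 76.5 CPM in the day 0 library, 58.3 CPM in the day 2 library and 67.1 CPM in the day 6 library, and RFC5 at 40.5 CPM in the day 0 library, 39.3 CPM in the day 2 library and 44.0 CPM in the day 6 library.

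RPA1, RPA2 and RPA3 form the complex that coats single-stranded DNA. RPA1 stood at 169.6 CPM in the day 0 library, 171 CPM in the day 2 library and 242 CPM in the day 6 library and RPA2 at 54.8 CPM in the day 0 library, 60.4 CPM in the day 2 library and 81.6 CPM in the day 6 library, both highest at labelled day 6. RPA3, the smallest subunit, went the other way and stood at 124 CPM in the day 0 library, 114 CPM in the day 2 library and 103 CPM in the day 6 library. The ratio for day 6 over day 0 was 1.43 (1.38 to 1.48) for RPA1, 1.49 (1.40 to 1.58) for RPA2 and 0.826 (0.790 to 0.864) for RPA3. None of these departed from the list median by 1.5-fold.

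FEN1 and LIG1, which trim and seal the fragments of the lagging strand, were higher with each later label. FEN1 stood at 80.1 CPM (95% interval 76.9 to 83.5) in the day 0 library, 96.3 CPM (95% interval 92.1 to 101) in the day 2 library and 146 CPM (95% interval 143 to 150.1) in the day 6 library, and LIG1, the DNA ligase, at 26.9 CPM in the day 0 library, 30.7 CPM in the day 2 library and 40.1 CPM in the day 6 library. Both ran in the order day 0, day 2, day 6. The ratio for day 6 over day 0 was 1.83 (1.74 to 1.92) for FEN1 and 1.49 (1.37 to 1.63) for LIG1. FEN1 overlaps TMEM258, at 395 CPM in the day 0 library, 346 CPM in the day 2 library and 417 CPM in the day 6 library, and FADS2, at 169.7 CPM in the day 0 library, 134 CPM in the day 2 library and 214 CPM in the day 6 library, and their part in its counts was not tested.

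Genes of nucleotide supply had the lowest sum at labelled day 2, as the polymerases had. Summed, they stood at 655 CPM in the day 0 library, 536 CPM in the day 2 library and 623 CPM in the day 6 library. TYMS, which makes thymidylate, stood at 215 CPM (95% interval 209 to 220.1) in the day 0 library, 133 CPM (95% interval 128 to 138) in the day 2 library and 163 CPM (95% interval 159 to 167) in the day 6 library, highest at labelled day 0. RRM1, the large subunit of ribonucleotide reductase, stood at 160.1 CPM in the day 0 library, 99.3 CPM in the day 2 library and 140.1 CPM in the day 6 library, in the same order of libraries as TYMS. RRM2, its small subunit, had another order and stood at 130.3 CPM in the day 0 library, 118 CPM in the day 2 library and 174 CPM in the day 6 library, highest at labelled day 6. DUT, which removes dUTP, was highest at labelled day 2 and stood at 149.7 CPM in the day 0 library, 185 CPM in the day 2 library and 146 CPM in the day 6 library. For day 2 over day 0 the ratio was 0.621 (0.594 to 0.650) for TYMS, 0.620 (0.588 to 0.653) for RRM1, 0.906 (0.860 to 0.954) for RRM2 and 1.24 (1.18 to 1.29) for DUT. The departure of RRM1 was lost with a mitochondrial limit of 10%. TYMS, RRM2 and DUT have named pseudogenes, so their counts are uncertain to that extent. ENOSF1, which overlaps TYMS on the other strand, stood at 20.9 CPM in the day 0 library, 25.6 CPM in the day 2 library and 37.3 CPM in the day 6 library.

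The checkpoint and repair genes were lowest in the day 2 library as well. CLSPN, claspin, which passes the stalled fork signal to CHEK1, stood at 108 CPM (95% interval 105 to 112) in the day 0 library, 55.6 CPM (95% interval 52.4 to 58.9) in the day 2 library and 92.1 CPM (95% interval 89.2 to 95.1) in the day 6 library. The day 2 level was the lowest of the 3, with a ratio of 0.513 (0.479 to 0.549) to day 0, while the ratio of day 6 to day 2 was 1.66 (1.55 to 1.77). BLM, a RecQ helicase, stood at 38.9 CPM in the day 0 library, 28.8 CPM in the day 2 library and 38.1 CPM in the day 6 library, and EXO1, an exonuclease, at 23.9 CPM in the day 0 library, 19.9 CPM in the day 2 library and 24.1 CPM in the day 6 library. The chromatin assembly genes CHAF1A and CHAF1B, which place histones behind the fork, differed little. CHAF1A stood at 75.3 CPM in the day 0 library, 71.6 CPM in the day 2 library and 82.0 CPM in the day 6 library and CHAF1B at 16.4 CPM in the day 0 library, 17.9 CPM in the day 2 library and 15.4 CPM in the day 6 library.

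The same genes were then followed cell by cell, with each kept cell thinned to 1000 UMIs. A median of 5.50% of cells in the day 0 library, 5.79% in the day 2 library and 7.58% in the day 6 library held a UMI of a given member. Without thinning these medians were 39.9%, 30.3% and 37.3%, at median depths of 8770, 3814 and 4429 UMIs per cell. Of 13 genes of tissues outside the culture, the highest, MYH6, was seen in 0.0437%, 0.124% and 0.191% of thinned cells. That share does not measure free RNA from the culture's own cells, and no cell type that lacks replication genes was at hand to do so. MCM5 was seen in 4.80% of cells in the day 0 library, 9.59% in the day 2 library and 14.1% in the day 6 library, CDC6 in 3.80% of cells in the day 0 library, 5.62% in the day 2 library and 10.3% in the day 6 library, and PCNA in 16.3% of cells in the day 0 library, 25.4% in the day 2 library and 21.03% in the day 6 library. For MCM5, CDC6 and PCNA the order of libraries was that of the CPM. It was not so for every member. POLA2, POLD2, POLE, RFC5, RRM2 and CHAF1A, lowest in CPM at labelled day 2, were seen in a larger share of cells there than at labelled day 0. RRM2 was seen in 11.5% of thinned cells in the day 0 library and 13.8% in the day 2 library, and POLD2 in 11.1% and 11.7%. The intervals of these shares overlap between the day 0 and day 2 libraries.

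A cell held a median of 3 member UMIs per 1000 at labelled day 0, 3 at labelled day 2 and 4 at labelled day 6. Cells with none made up 7.07%, 3.93% and 3.42% of these libraries, and cells with at least 10 made up 1.44%, 1.41% and 3.76%. The day 6 library thus held the larger share of cells rich in replication transcripts, while the day 0 library held the larger share of cells with none.

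**Figure D3:**
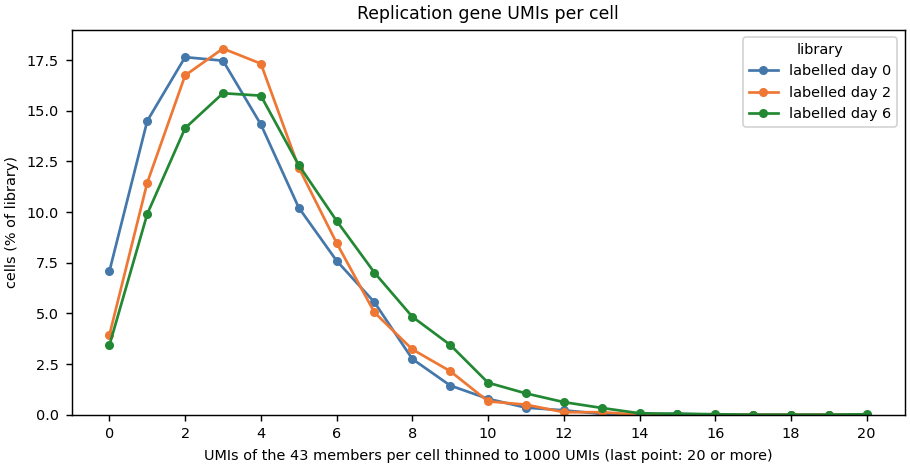
Share of cells (y axis, % of a library) by the number of UMIs of the 43 members in a cell thinned to 1000 UMIs (x axis; the last point holds 20 or more), with 1 curve per library. The day 6 curve lies furthest right, with 3.76% of cells at 10 or more, against 1.44% at labelled day 0 and 1.41% at labelled day 2.

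Whether each gene goes with other S phase transcripts was examined inside each library. Cells were split by 22 S phase genes that are not members, into cells with 2 or more UMIs of these genes per 1000 and cells with 0. The cells with 2 or more numbered 1012, 1245 and 2003 at labelled day 0, day 2 and day 6, against 571, 463 and 958 with 0. Genes of this list differ between libraries themselves, among them CDCA7, so the sizes of the classes are not compared. Members summed to 3903 CPM in cells with 2 or more and 2699 CPM in cells with 0 in the day 0 library, a ratio of 1.45 (1.36 to 1.53). In the day 2 library the sums were 3932 and 3395 CPM in the same classes, a ratio of 1.16 (1.09 to 1.23). In the day 6 library they were 4859 and 3463 CPM, a ratio of 1.40 (1.35 to 1.46). The ratio was above 1 in each library and smallest at labelled day 2. The genes of G2 and mitosis differed less across the same split, with ratios of 1.15, 1.02 and 1.21 at labelled day 0, day 2 and day 6.

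By gene, 8 of 41 members were at least 2-fold higher in cells with 2 or more at labelled day 0, against 4.95% of all genes. At labelled day 2 there were 0, against 5.82%, and at labelled day 6 there were 2, against 2.95%. These counts rest on few UMIs per gene: with levels from all UMIs of the same cells, an alternative chosen after seeing the data, they were 1, 0 and 1. In that alternative 0.322%, 0.152% and 0.114% of all genes were at least 2-fold higher. In thinned cells 40, 28 and 38 of 41 members had a ratio above 1 at labelled day 0, day 2 and day 6, against 52.7%, 53.8% and 55.7% of all genes. With all UMIs these numbers were 41, 37 and 41, against 57.5%, 56.3% and 58.5%. The values that follow are from all UMIs unless said otherwise, as ratios of cells with 2 or more over cells with 0, and cells of 1 library are not replicates.

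In thinned cells the 5 highest genes across the split, by the ratio of levels averaged over libraries, were CHAF1B, MCM10, CLSPN, BLM and EXO1. From all UMIs they were EXO1, MCM10, CDC45, CLSPN and PCNA, so EXO1, MCM10 and CLSPN, of repair, firing and checkpoint, stood in both. EXO1 had ratios of 2.10 (1.67 to 2.66) in the day 0 library, 1.40 (1.06 to 1.87) in the day 2 library and 1.58 (1.34 to 1.88) in the day 6 library. MCM10 had ratios of 1.74 (1.46 to 2.08) in the day 0 library, 1.29 (1.04 to 1.61) in the day 2 library and 1.75 (1.54 to 1.98) in the day 6 library. CLSPN had ratios of 1.85 (1.66 to 2.05) in the day 0 library, 0.981 (0.843 to 1.14) in the day 2 library and 1.57 (1.44 to 1.71) in the day 6 library, so it went with the S phase genes in the day 0 and day 6 libraries and showed no difference beyond counting error in the day 2 library. BLM had ratios of 1.59 (1.35 to 1.88) in the day 0 library, 1.08 (0.866 to 1.35) in the day 2 library and 1.498 (1.31 to 1.71) in the day 6 library. CHAF1B had ratios of 1.59 (1.23 to 2.07) in the day 0 library, 1.05 (0.798 to 1.38) in the day 2 library and 1.62 (1.31 to 2.02) in the day 6 library. In thinned cells, the ratios at labelled day 0, day 2 and day 6 were 1.75, 1.70 and 1.90 for CLSPN and 2.03, 1.36 and 5.14 for CHAF1B. The last of these rests on 4 UMIs in cells with 0.

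The 5 lowest in thinned cells were RPA2, LIG1, CDC45, POLD2 and RPA3. RPA3 had ratios of 1.11 (1.02 to 1.21) in the day 0 library, 1.09 (0.978 to 1.22) in the day 2 library and 1.02 (0.944 to 1.10) in the day 6 library. POLD2 had ratios of 1.13 (1.03 to 1.24) in the day 0 library, 1.05 (0.941 to 1.18) in the day 2 library and 1.05 (0.973 to 1.13) in the day 6 library. RPA2 had ratios of 1.24 (1.08 to 1.41) in the day 0 library, 1.02 (0.878 to 1.18) in the day 2 library and 1.18 (1.08 to 1.29) in the day 6 library, and LIG1 of 1.04 (0.864 to 1.24) in the day 0 library, 1.13 (0.908 to 1.41) in the day 2 library and 1.204 (1.06 to 1.37) in the day 6 library. In RPA3, POLD2, RPA2 and LIG1 every ratio lay below those of PCNA in the same library, and the intervals in the day 2 library hold 1. CDC45 changed place with the depth: its ratios in thinned cells were 1.34, 0.279 and 1.97 at labelled day 0, day 2 and day 6, and with all UMIs 1.72 (1.35 to 2.21) in the day 0 library, 1.02 (0.739 to 1.42) in the day 2 library and 2.06 (1.66 to 2.58) in the day 6 library. PCNA had ratios of 1.63 (1.51 to 1.76) in the day 0 library, 1.32 (1.23 to 1.42) in the day 2 library and 1.64 (1.54 to 1.75) in the day 6 library, above 1 in every library.

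**Figure D4:**
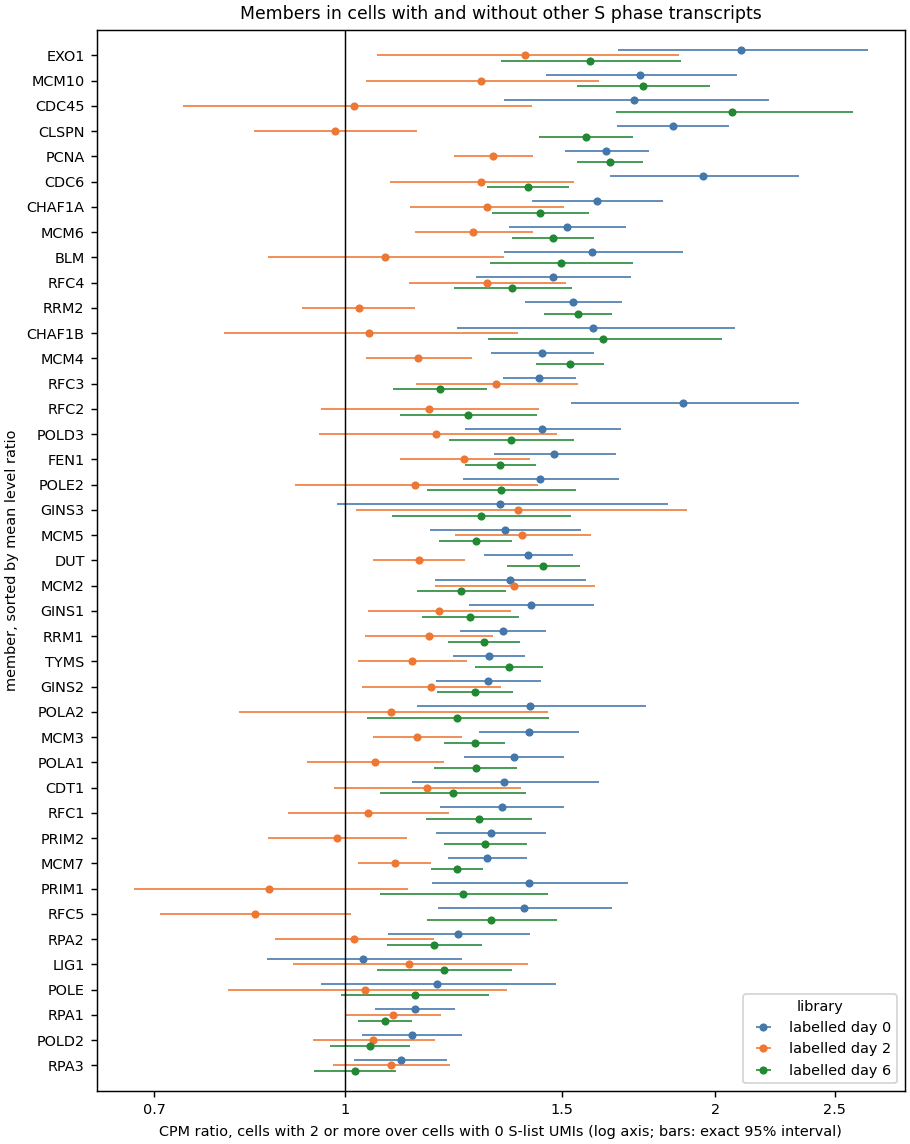
Ratio of CPM (x axis, log scale, exact 95% intervals) in cells with 2 or more over cells with 0 UMIs of 22 other S phase genes, from all UMIs of the cells, for 41 genes in each library. EXO1, MCM10, CDC45 and CLSPN lead, RPA1, POLD2 and RPA3 lie near 1, and most day 2 points lie left of the others.

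The differences between libraries were also set against this split. These cells are part of those in which the departures were found, so their ratios are a description and no separate check. RFC3 had a ratio for day 6 over day 0 of 0.461 (0.373 to 0.568) among cells with 2 or more and 0.463 (0.324 to 0.659) among cells with 0. MCM5 had 2.92 (2.23 to 3.88) and 3.25 (2.05 to 5.38), and CDC6 2.39 (1.77 to 3.26) and 4.70 (2.34 to 10.7), in the same classes. The 3 genes thus differed between these libraries in both classes. The CDC6 ratio among cells with 0 rests on 9 UMIs at labelled day 0. Of the 9 genes departing for day 6 over day 0, POLE2, GINS3 and POLE had intervals that hold 1 among cells with 0, and the others did not. POLE2 had 0.615 (0.424 to 0.896) among cells with 2 or more and 1.06 (0.532 to 2.21) among cells with 0.

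Of 150 further genes of replication, its regulation, nucleotide supply and mitosis with at least 10 CPM, 7 had a ratio of at least 2 for day 2 over day 0, and 14 a ratio of at most 0.5, against 10.1% and 10% of all genes. Between day 6 and day 2 these numbers were 4 and 5, against 8.39% and 6.25%. Between day 6 and day 0 they were 3 and 14, against 10.8% and 6.06%. Of the 18 origin and licensing genes among them, the kinase gene CDC7 had a ratio of at most 0.5 for day 2 over day 0, at 99.9 CPM in the day 0 library, 48.8 CPM in the day 2 library and 72.4 CPM in the day 6 library. CCNE1, cyclin E1, which drives entry into S phase, stood at 11.0 CPM in the day 0 library, 24.0 CPM in the day 2 library and 34.7 CPM in the day 6 library, the same order as CDC6 and MCM5. SAMHD1, which breaks down deoxynucleotides, stood at 19.9 CPM in the day 0 library, 44.3 CPM in the day 2 library and 60.8 CPM in the day 6 library. MTHFD1, of folate metabolism, was highest at labelled day 2 and stood at 49.4 CPM in the day 0 library, 129.6 CPM in the day 2 library and 52.5 CPM in the day 6 library.

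By contrast BRCA2, of homologous recombination, stood at 36.7 CPM in the day 0 library, 13.0 CPM in the day 2 library and 27.3 CPM in the day 6 library, lowest at labelled day 2. The remaining genes named by the rule were mitotic and were highest at labelled day 0. SMC4, a condensin subunit, stood at 222 CPM in the day 0 library, 65.7 CPM in the day 2 library and 48.5 CPM in the day 6 library. CENPE, a kinetochore motor, stood at 141 CPM in the day 0 library, 56.6 CPM in the day 2 library and 55.4 CPM in the day 6 library. NUF2, TTK and GAS2L3 had ratios for day 6 over day 0 of 0.269 (0.246 to 0.294), 0.340 (0.306 to 0.377) and 0.231 (0.200 to 0.265).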

How the data were processed

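Counts per gene and barcode were deposited by the authors as whole-number matrices with lists of barcodes and gene symbols, 1 set per library. They were taken as UMI counts because inDrop uses UMIs. STAR and hg38 are named, without versions, by the submitters' processing notes. How duplicates were collapsed, the annotation and the use of strand were not given in the sources used here.

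A barcode counted as a cell from 1000 UMIs and 500 genes upward, if no more than 25% of its UMIs were mitochondrial. Ratios of summed counts have exact conditional binomial 95% intervals, levels exact Poisson and shares exact Clopper-Pearson intervals. Doublets were kept; scrublet scores served for 1 alternative. Cells were thinned to 1000 UMIs for shares and classes. Clusters, also for 1 alternative, used scanpy 1.11.5 and igraph 0.11.9 with 2000 variable genes, 30 components, 15 neighbours and resolution 0.5. TMM factors came from edgeR 4.0.16. The calculations were tested on simulated data. Gene positions and overlaps are from GENCODE 29, promoters from RefSeq; 29 of 43 members overlap another annotated gene, 22 of them one on the other strand, and 9 have a pseudogene of their name.

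The members, lists and settings were chosen with earlier results of these data known. Named genes are members departing from the list median or past 2-fold, MCM2 to MCM7, PCNA, the 5 highest and 5 lowest in the split, and the 10 other pathway genes farthest from 1 by interval bound, of which 1 is not reported here; other members and CDC7 are given besides. Markers of mesoderm and endoderm summed to at most 2.13 CPM in any library, and those of tissues outside the culture to at most 2.86 CPM. Pluripotency markers summed to 715, 3513 and 1657 CPM, neural progenitor markers to 3919.9, 187 and 669 CPM, neuronal markers to 21.1, 27.3 and 113 CPM, and neural crest markers to 0.776, 28.1 and 0.654 CPM at labelled day 0, day 2 and day 6. SOX2, also a neural progenitor gene, gave 600.4 CPM of the pluripotency sum at labelled day 0, and FOXD3, also expressed in pluripotent cells, gave 27.3 CPM of the neural crest sum at labelled day 2.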

Additional observations from a re-analysis of the deposited data

Results flagged for a closer look

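Barcodes that the cell filter removed also held UMIs of the replication genes, above the limit that a count of 0 allows. Barcodes under the UMI or gene minimum held 3131 CPM of the members at labelled day 0, 2566 CPM at labelled day 2 and 3586 CPM at labelled day 6. Barcodes over the mitochondrial limit held 2379 CPM at labelled day 0, 1905 CPM at labelled day 2 and 2772 CPM at labelled day 6. Each of these is below the sum in the kept cells of the same library, and the library labelled day 6 is the highest in each kind of barcode.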

How the results depend on the processing

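Over the alternatives for counts, medians, sums and shares, 156 values were labelled the same as the reported ones and 36 were not. Counts of members among the 36 lay at least 1.5 times off. Sums and median log2 ratios among the 36 lay outside the counting interval of the reported value, also where they were within 1.5 times of it. The count of members at least 2-fold higher for labelled day 2 over day 0 was 0, and 1 with the average of single-cell CPM. The count at most 0.5 times for labelled day 2 over day 0 was 1, and 2 with TMM factors and with median-of-ratios factors and with no cell filter and with the average of single-cell CPM and 3 with a mitochondrial limit of 10%. The median log2 ratio for labelled day 2 over day 0 was -0.06, and -0.27 with no cell filter and 0.11 with the average of single-cell CPM. The count of departing members for labelled day 2 over day 0 was 11, and 7 with a minimum of 50 CPM. The count of members at least 2-fold higher for labelled day 6 over day 2 was 1, and 3 with a mitochondrial limit of 10%. The median log2 ratio for labelled day 6 over day 2 was 0.30, and 0.44 with no cell filter. The count of departing members for labelled day 6 over day 2 was 5, and 8 with a mitochondrial limit of 10%. The count of members at least 2-fold higher for labelled day 6 over day 0 was 3, and 5 with the average of single-cell CPM. The count of departing members for labelled day 6 over day 0 was 9, and 5 with a minimum of 50 CPM. The summed level of members at labelled day 0 was 3405 CPM, and 3315 CPM with no cell filter, 3910.2 CPM with a mitochondrial limit of 10% and 3342 CPM with mitochondrial shares between 5% and 25%. The median share of cells with a UMI at labelled day 0 was 5.50%, and 10.7% thinned to 2000 UMIs and 39.9% without thinning. The summed level of members at labelled day 2 was 3345 CPM, and 2895 CPM with no cell filter, 3888 CPM with a mitochondrial limit of 10% and 3104 CPM with mitochondrial shares between 5% and 25%. The median share of cells with a UMI at labelled day 2 was 5.79%, and 12.0% thinned to 2000 UMIs and 30.3% without thinning. The summed level of members at labelled day 6 was 3897 CPM, and 3728 CPM with no cell filter, 3869 CPM with at least 2000 UMIs per cell, 4369 CPM with a mitochondrial limit of 10% and 3733 CPM with mitochondrial shares between 5% and 25%. The median share of cells with a UMI at labelled day 6 was 7.58%, and 14.9% thinned to 2000 UMIs and 37.3% without thinning. The count of members at least 2-fold higher in cells with S phase UMIs at labelled day 0 was 8, and 16 thinned to 2000 UMIs, 5 with classes of 1 or more S phase UMIs and 1 from all UMIs of the same cells. The count of members at least 2-fold higher in cells with S phase UMIs at labelled day 2 was 0, and 6 thinned to 2000 UMIs. The count of members at least 2-fold higher in cells with S phase UMIs at labelled day 6 was 2, and 12 thinned to 2000 UMIs and 1 from all UMIs of the same cells. The share of all genes at least 2-fold higher is not given for thinning to 2000 UMIs or for classes of 1 or more. The counts in those settings are therefore not read as a result about the members. Thinning to 2000 UMIs also left out 254, 644 and 1063 cells at labelled day 0, day 2 and day 6. The cause of the differences between settings was not tested. Thinning to more UMIs raises shares by construction, and the minimum of 50 CPM leaves 26 members. Of 25 departures over 13 alternatives, 302 values still departed, 23 fell short of 1.5-fold or of the interval, or left the genes tested, and 0 changed direction. Members that departed only in an alternative are not in these numbers. No paired analysis was possible because each label has 1 library, and no replicate could be left out for the same reason. GINS4 and POLD1 stayed below 10 CPM and enter no ratio. Depth limits genes with few UMIs in the thinned split.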
